A study of Homo sapiens with 6 samples.

Results

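NEAT1 and MALAT1 are neighbouring genes for long noncoding RNAs on chromosome 11, and the deposited YAP and TAZ peaks were described across a 300 kb stretch that holds both. All peaks overlapping chr11:65100000-65400000 (hg19, counted from 1) by at least 1 bp were taken, whatever their strength. They numbered 196 of the 1390121 peaks in 4 deposited lists. NEAT1 was taken at 65190269 to 65213011 (22743 bp) and MALAT1 at 65265233 to 65273940 (8708 bp), both on the plus strand, with 52221 bp between them. The lists came from chromatin immunoprecipitation and sequencing in H1299, a long-established cell line from a human non-small cell lung cancer, kept without serum for 18 hours. An antibody against YAP was used for 2 libraries and an antibody against TAZ for 2 others, and 2 further libraries were input chromatin, used by the authors as the reference for peak calling. The labels name no genetic change or other treatment in any group. Nothing in the labels said that replicates were separate cultures, so spreads between libraries may be technical.

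YAP and TAZ are the coactivators at the end of the Hippo pathway. They do not bind DNA themselves and reach it mainly through TEAD factors, often at enhancers that also hold AP-1 factors. NEAT1 RNA is the scaffold of paraspeckles, nuclear bodies built with proteins such as NONO and SFPQ. It is made as a short and a long form from the same start site. MALAT1 RNA is abundant, stays in the nucleus and gathers at nuclear speckles, and a small tRNA-like RNA, mascRNA, is cut from its 3′ end. Both genes are transcribed at high levels in many cell types, lung cancer cells among them.

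No peak of any library lay within 1 kb of the MALAT1 start, so the RefSeq sequences around MALAT1 starts are shown for reference. RefSeq lists 2 starts for MALAT1 on build GRCh38.p14, at chr11:65497488-65497787 and chr11:65498795-65499094 (plus strand), each window running from 250 bases before the start to 50 after it. Lower case marks the bases before the start and capitals mark the first 50 transcribed bases. These windows are on another build than the peaks, and their positions were not converted, so they were not placed against the peaks.
MALAT1 first start: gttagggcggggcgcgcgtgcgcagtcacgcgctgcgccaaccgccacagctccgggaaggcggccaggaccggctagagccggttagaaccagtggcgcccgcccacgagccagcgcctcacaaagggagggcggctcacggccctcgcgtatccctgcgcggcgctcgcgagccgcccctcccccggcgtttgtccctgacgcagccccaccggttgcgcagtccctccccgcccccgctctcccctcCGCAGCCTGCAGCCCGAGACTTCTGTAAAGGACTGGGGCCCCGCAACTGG
MALAT1 second start: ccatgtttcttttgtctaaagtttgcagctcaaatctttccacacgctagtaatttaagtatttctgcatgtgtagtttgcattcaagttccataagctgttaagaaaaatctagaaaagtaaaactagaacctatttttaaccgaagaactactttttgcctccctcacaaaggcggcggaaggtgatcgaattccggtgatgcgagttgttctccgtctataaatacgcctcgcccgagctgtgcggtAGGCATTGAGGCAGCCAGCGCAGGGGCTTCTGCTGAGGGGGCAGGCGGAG

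The first window was 73.7% G and C with 37 CpG dinucleotides, and the second was 46% with 14. The median over all 35116 RefSeq promoter windows of this length was 58.7%. Neither window held the TEAD letters GGAATG on either strand, which 14% of all windows did. Neither held the AP-1 letters TGANTCA, which read the same on both strands and were found in 7.71% of all windows. These motifs were short and exact, and a missing match says only that the letters are not in these 300 bases.

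Across the locus, peaks filled the DNA around the 2 genes and were sparse inside them. Of the 300 kb, YAP peaks covered 47.8% and 49.3% in replicates 1 and 2, and TAZ peaks 52.7% and 69.2%. The same lists covered 16.9%, 14.8%, 13.3% and 14.0% of chromosomes 1 to 22 and X. Among 9499 non-overlapping windows of the same length with at least 1 peak, the locus was more fully covered than 92.2% and 94.2% of them by YAP peaks, and than 96.5% and 98.2% by TAZ peaks. The map of the locus shows this cover, and the 2 widest gaps in it.

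**Figure D1:**
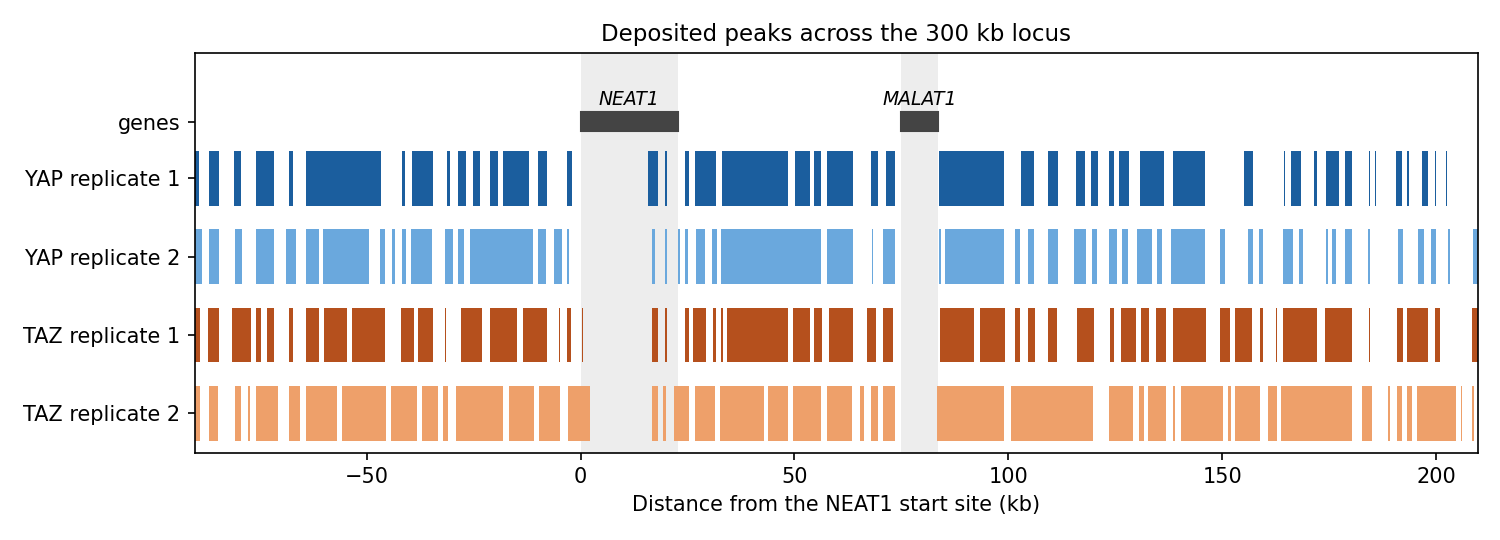
Peaks of each library (boxes, 1 row a library) against the distance in kb from the NEAT1 start; grey bands mark NEAT1 and MALAT1. The 2 longest stretches free of peaks in all 4 libraries, 13.6 and 9.7 kb, lie in NEAT1 and over MALAT1.

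MALAT1 itself was almost free of peaks. Both YAP libraries and TAZ replicate 1 had 0 bases of the gene under a peak, and TAZ replicate 2 had 371 bases, or 4.26%, all at the 3′ end. A stretch of 9723 bp from 65263847 to 65273569 held no peak of any library and took in 95.7% of the gene, its start site included. In 29.5% of all 348548 windows of this length, every library was likewise covered to at most 4.26%. Unlike the comparison of the whole locus, this share counts windows without any peak, 70069 of them. Coverage of at most 4.26% in every library is thus not rare among these windows, a looser demand than the 0 bases of MALAT1 in all but TAZ replicate 2. Here the gene lay inside a densely covered locus. By 1 kb bins, 8 of the 9 bins of MALAT1 were free of peaks in all 4 libraries, against 61.7% of all bins.

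The borders of the MALAT1 gap fell at similar places in all libraries. Before the gene, the last YAP peak ended at 65263846 and 65263810 and the last TAZ peak at 65263290 and 65263812, 1387 to 1943 bp short of the start site. These 4 ends lay within 556 bp of each other. After the gene, the first peak began 249 and 231 bp past the annotated end in the YAP libraries and 314 bp past it in TAZ replicate 1. In TAZ replicate 2 it began 370 bp before the end. The gap thus matched the gene closely on its 3′ side and ran past its start by over 1 kb on the 5′ side.

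At its 3′ end, MALAT1 was followed at once by a wide covered region, from 65273570 to 65289413 (15844 bp merged over the libraries). YAP replicate 1 had a single peak of 15032 bp there, with a fold of 3.70 over input. YAP replicate 2 had a peak of 258 bp and one of 13814 bp, the better-ranked at 3.27. TAZ replicate 1 had peaks of 8050 and 5647 bp, the better-ranked at 3.80, and TAZ replicate 2 had 1 of 15738 bp at 3.00. The fold, the authors' own enrichment over input for a whole peak, was read only within a list. Every library thus held this region, in 1 piece or in 2.

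**Figure D2:**
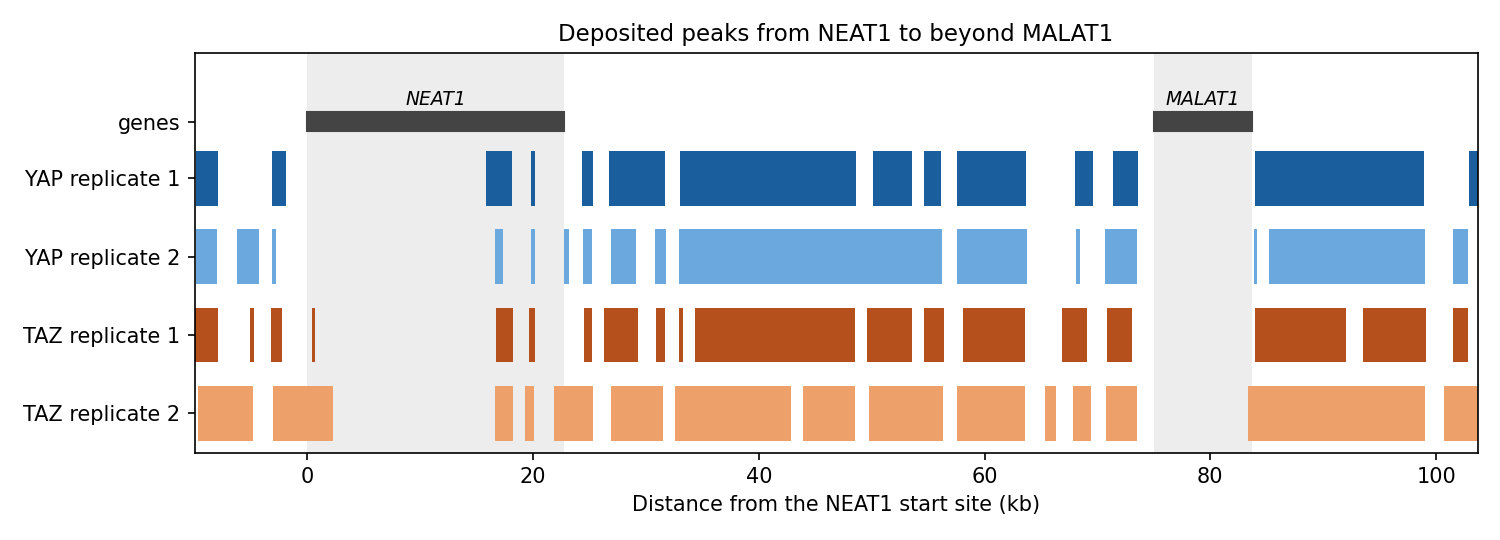
Peaks of each library from 10 kb before the NEAT1 start to 20 kb after the MALAT1 end, with distance in kb on the x axis and grey bands for the genes. MALAT1 is crossed by no peak other than the 371 bp reached by TAZ replicate 2, and the NEAT1 peaks of both YAP libraries begin more than 15 kb into the gene.

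NEAT1 was covered unevenly along its length; of 4 segments of equal length, the second was free of peaks in every library. YAP peaks covered 11.6% and 4.94% of the whole gene, and TAZ peaks 10.1% and 24.5%. In 73.2% of all 133448 windows of this length, 12390 without any peak among them, every library was covered to at most 24.5%. These levels are thus ordinary for the genome, although low for this locus. In the first segment no base lay under a YAP peak, and TAZ peaks covered 4.47% and 39.4%. The second segment had 0 in all 4. In the third segment YAP peaks covered 21.3% and 8.39% and TAZ peaks 6.51% and 8.41%. In the fourth, at the 3′ end, YAP peaks covered 25.3% and 11.4% and TAZ peaks 29.3% and 50.3%. Of the 23 bins of 1 kb in NEAT1, 14 were free of all peaks, which at 60.9% is close to the background of 61.7%. That background counts all tiled bins, also those in unsequenced stretches of the build, and would be lower without them.

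The start site of NEAT1, from which both RNA forms begin, lay under a peak in TAZ replicate 2 only. Within 1 kb of it, both TAZ libraries and neither YAP library had a peak, and within 2.5 kb YAP replicate 1 had one too. In TAZ replicate 2 a peak of 5275 bp from 65187237 to 65192511 ran across the start, at fold 3.16 and −log10 q 2.91, above 64.5% of its list. In TAZ replicate 1 a peak of only 254 bp began 423 bp after the start, at fold 2.66 and −log10 q 1.80, above only 16.3% of its list. The nearest YAP peaks ended 1917 and 2818 bp before the start. As background, a window of 2001 bp anywhere was met by a peak in 40.8% and 36.2% of cases with YAP, and in 33.6% and 32.8% with TAZ. Such a window was free of all peaks in 50.1%. With peaks of a q-value of at most 0.01, only the TAZ replicate 2 peak was left at this start.

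Just before the NEAT1 start, all 4 libraries had a peak at about the same place. In YAP replicate 2 it ran from 65187093 to 65187451, at fold 4.23 and −log10 q 6.33, both the highest of the locus in that library. It was 1 of its 20000 strong peaks, those with the highest −log10 q. The YAP replicate 1 peak there had fold 4.16 and −log10 q 6.86, and that of TAZ replicate 1 had 2.70 and 1.72. In TAZ replicate 2 this place was the front end of the peak over the start. The position was therefore shared, while the rank within the list differed widely between libraries.

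Inside NEAT1, 2 places in the 3′ part of the gene carried a peak in every library. The first began about 16 kb into the gene, at 65206117 and 65206849 with YAP, and at 65206956 and 65206848 with TAZ, within 839 bp. The YAP peaks had fold 3.04 and 3.28, the TAZ peaks 3.14 and 4.45. In TAZ replicate 2 this peak of 1630 bp had the highest fold and the highest −log10 q of the locus, 5.58, and ranked above 97.4% of its list. In the other libraries it stood near the middle of the list, above 42.8% and 58.8% of the YAP peaks and 44.6% of the TAZ replicate 1 peaks. The second place was narrower, 380 and 366 bp with YAP (fold 2.68 and 3.57) against 510 and 809 bp with TAZ (fold 2.77 and 2.47). No annotation of the files' build was used, so these peaks were not assigned to either RNA form.

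Before both places, from 65192512 to 65206116, no library had a peak. This stretch of 13605 bp was the longest of the locus free of all peaks and held 59.8% of NEAT1. Together with the MALAT1 stretch it stood apart from the rest of the locus, where the next longest common gap was 3067 bp. Over the genome, 429 windows of the same length were covered to at least 47.8% in every library. Of these, 3.5% held a common gap at least as long as that in NEAT1, and 1.4% also held a second one at least as long as that over MALAT1. This comparison was chosen after the gaps were seen and is given as a description. Leaving out any 1 library gave a NEAT1 gap of 13.6 to 15.2 kb and a MALAT1 gap of 9.72 to 10.3 kb. Leaving out a library can only keep or lengthen a common gap, so these ranges could not have shown a shorter one.

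The interval between the genes was more fully covered than either gene and than the outer parts of the locus in every library, by the least in TAZ replicate 2. YAP peaks covered 69.9% and 71.2% of its 52221 bp, and TAZ peaks 66.4% and 76.5%. All 4 libraries shared 56.2% of its bases, against 3.76% of NEAT1 and 0 of MALAT1. In 1 kb bins, 39 of 52 were met by peaks of all 4 libraries (75%), where 14.6% of all bins were, and 1 was free of peaks. In the RefSeq gene order, FAUP4, a transcribed pseudogene, and the noncoding genes ENEMAL and LINC02736 lie between NEAT1 and MALAT1. Their positions on hg19 were not used here.

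The middle of this interval was a domain of 23858 bp from 65222811 to 65246668, the best-ranked region there that all 4 libraries held. YAP replicate 2 covered most of it with 1 peak of 23268 bp, its widest in the locus. YAP replicate 1 and TAZ replicate 1 had peaks of 15621 and 14156 bp in it, and TAZ replicate 2 one of 10295 bp. The best-ranked YAP peaks had fold 3.81 and 3.33, and the best-ranked TAZ peaks 4.61 and 3.46. The TAZ replicate 1 value belonged to a peak of 340 bp at the domain's front edge, the highest fold of the locus in that library. The best-ranked region held by all libraries and touching NEAT1, from 65212115 to 65215579, crossed the gene's 3′ end into the interval. Its best-ranked peaks had fold 4.48 and 3.42 with YAP, 4.01 and 3.23 with TAZ. Of these, only the TAZ replicate 2 peak reached into the gene, and the others lay wholly past its end.

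**Figure D3:**
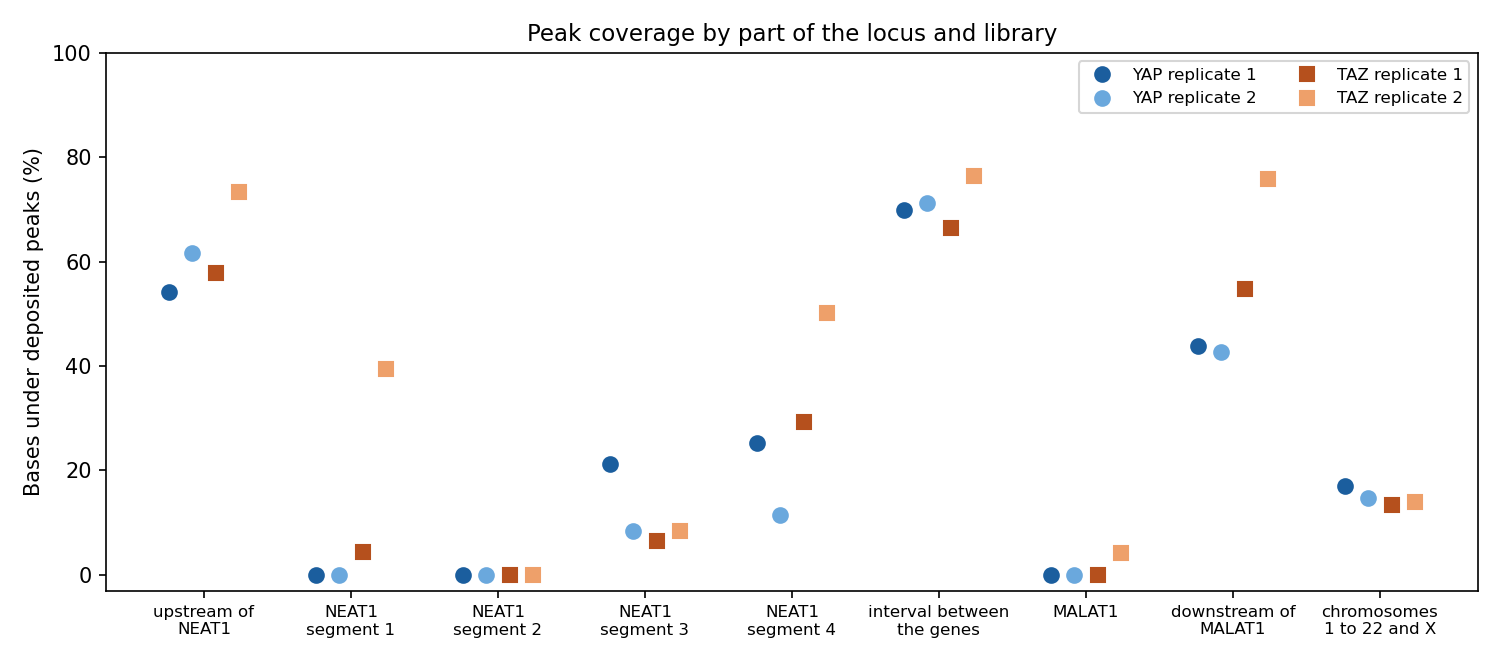
Percent of bases under deposited peaks (y axis) in each part of the locus and over the whole genome (x axis), 1 point a library. Segments 1 to 4 divide NEAT1 evenly from its start. Segment 2 is at 0 in all 4 libraries and MALAT1 at 0 in 3 of them, while the interval and the outer parts lie at 42.8% or more.

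The dense cover of the locus came with wide peaks, with more peaks per Mb and with a fold near that of all peaks. The locus held 157 and 177 YAP peaks and 173 and 147 TAZ peaks per Mb. The whole lists held 129, 116, 110 and 102 per Mb. The median peak width in the locus was 1953 and 1406 bp with YAP, 2246.5 and 3983.5 bp with TAZ, against list medians of 613, 629, 638 and 717 bp. Peaks of at least 5 kb made up 8 of 47 and 7 of 53 YAP peaks, and 12 of 52 and 18 of 44 TAZ peaks. The whole lists held 3.78%, 3.45%, 3.03% and 3.95% of such peaks. The median fold was 3.29 and 3.15 with YAP, 3.28 and 3.12 with TAZ, against 3.14, 3.14, 3.16 and 3.03 in the lists. The widest peaks were 17720 and 23268 bp with YAP, 14156 and 19120 bp with TAZ.

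**Figure D4:**
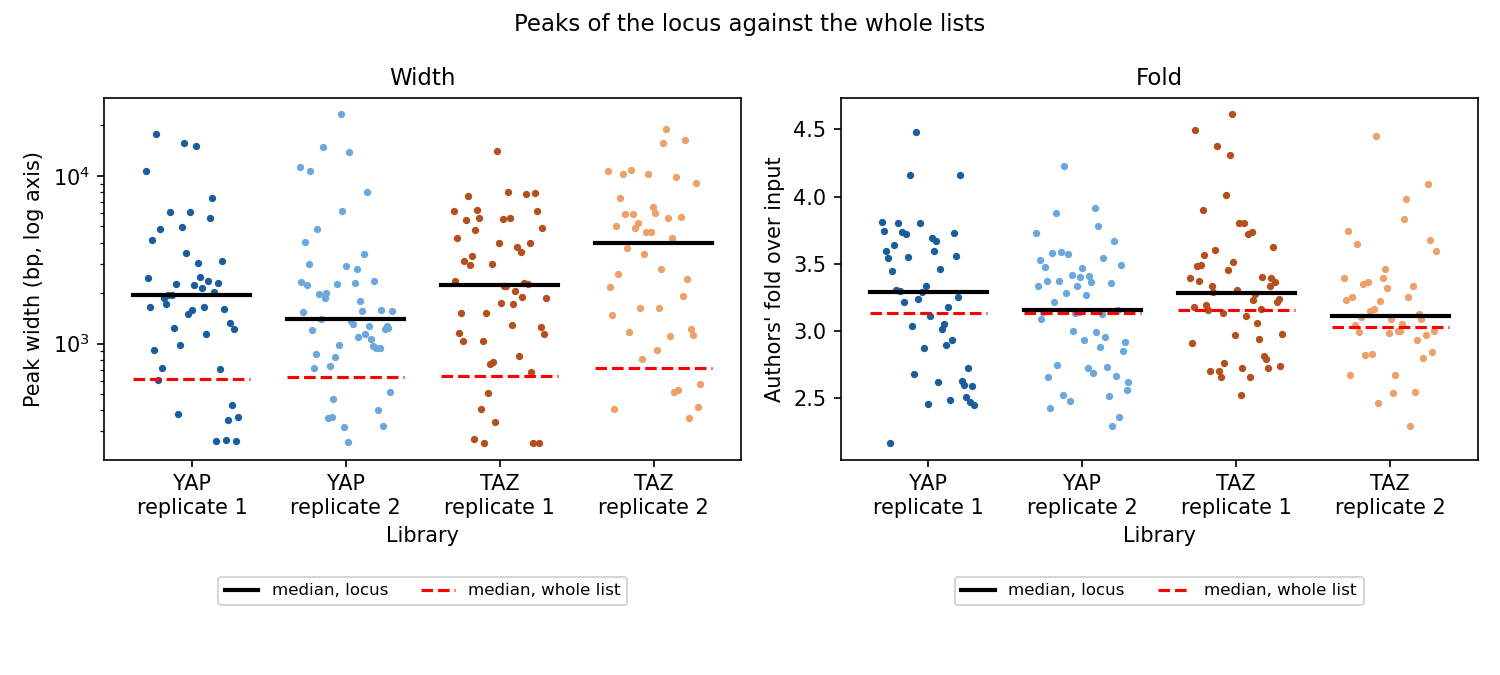
Width in bp on a log axis (left) and the authors' fold over input (right) of every peak of the locus, by library; solid lines are medians in the locus and dashed lines medians of the whole list. The width medians lie at 1406 to 3983.5 bp, above list medians of 613 to 717 bp, and the fold medians lie close together.

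Few of these peaks were among the strongest of their lists. The locus held 0 and 1 of the 20000 strong YAP peaks, and 2 and 1 of the strong TAZ peaks. Strong peaks made up 5.1%, 5.66%, 6% and 6.44% of the lists. Beside those already given, the remaining strong peak was in TAZ replicate 1, from 65114437 to 65115589 upstream of NEAT1, with a fold of 4.49. The highest fold in YAP replicate 1 was 4.48, in a peak of 985 bp from 65214595 just past the NEAT1 end, at rank 27478.

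YAP and TAZ were then compared by library, since the series asks how their binding compares. YAP covered 48.5% ± 1.08 of the locus and TAZ 61.0% ± 11.7 (SD, n = 2), a difference of -12.5 percentage points, while over the genome YAP covered 2.19 points more. Both TAZ libraries lay above both YAP libraries, and a two-sided exact permutation test returned p = 0.333, the lowest possible with 2 against 2 libraries (0.889 after Benjamini-Hochberg adjustment over 4 tests). The difference was -4.19 points without TAZ replicate 2 and -20.7 without TAZ replicate 1, so the TAZ libraries differed from each other by more than TAZ replicate 1 differed from YAP. Sequencing depth is unknown from peak lists and cannot be told apart from the extent of binding.

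The antibodies could not be distinguished within the genes. YAP covered 8.29% ± 4.74 of NEAT1 and TAZ 17.3% ± 10.2 (SD, n = 2), and the groups overlapped (exact permutation p = 0.667, adjusted 0.889). The difference of -9.01 points was -1.79 without TAZ replicate 2, -16.2 without TAZ replicate 1 and -5.67 without YAP replicate 2. MALAT1 coverage was 0 in both YAP libraries and 2.13% ± 3.01 for TAZ (SD, n = 2; exact permutation p = 1, adjusted 1), a difference that was 0 without TAZ replicate 2. The number of peaks in the locus was 47 and 53 with YAP, 52 and 44 with TAZ, or 50 ± 4.24 and 48 ± 5.66 (SD, n = 2; exact permutation p = 0.667, adjusted 0.889). With 2 libraries each, none of these tests could pass a threshold of 0.05.

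Overlap between libraries in the locus was then compared within and between antibodies. Merged over the 4 lists, the peaks formed 34 regions, of which 29 held a peak of every library (85.3%), against 39.2% of all regions. A region reaching beyond the window was kept whole, and densely covered DNA merges into wide regions that more libraries meet. Of the 34, 14 were covered to at least 50% by each library, a count without a share over all regions beside it. The Jaccard index, bases under peaks of both libraries divided by bases under peaks of either, was 0.692 for the YAP pair and 0.620 for the TAZ pair. The 4 mixed pairs, of different antibodies, lay between 0.585 and 0.664. Over the genome the YAP pair had 0.612, the TAZ pair 0.494, and the mixed pairs 0.495 to 0.540. The index rises with coverage alone, and coverage of the locus was far above that of the genome, so the higher values here do not show closer agreement.

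The index also differed between parts of the locus that differed in coverage. In the interval between the genes the Jaccard index was 0.821 for the YAP pair, 0.735 for the TAZ pair and 0.793 to 0.829 for the mixed pairs. In NEAT1 it was 0.411, 0.389 and 0.173 to 0.549, over far fewer covered bases. The mean index of same-antibody pairs less that of mixed pairs was 0.0334 in the locus and 0.0337 over the genome, but -0.0286 in the interval. The locus value was -0.0113 without YAP replicate 2 and 0.101 without TAZ replicate 1, so single libraries set it. Of the 300 bins of 1 kb, 0 had peaks of both YAP libraries and of neither TAZ library, against 2.46% of all bins. The reverse held in 13 bins (4.33%), against 0.8%. Such bin counts also move with coverage, which was higher with TAZ in the locus and on average higher with YAP over the genome. Whether the counts go beyond coverage was not tested.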

How the data were processed

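Peak lists of 4 antibody libraries were analysed; tools named in the submitters' processing notes are MACS2, Bowtie2, SAMtools and cutadapt, with build hg19 and no settings. The authors deposited broad peaks called in each library against an input; peak names in all lists name 1 common input and the names of the lists others, so the input used is unsettled. The deposited fold is a ratio of ChIP signal to input. The deposited −log10 q, with −log10 p for ties, served to rank and filter peaks within a list, and the deposited score was not used. Lists hold no read totals, so depth and its precision are unknown.

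Coverage, gaps, merged regions (overlap of at least 1 bp), 1 kb bins (by midpoint in a part) and Jaccard indices were computed on chromosomes 1 to 22 and X with Python 3.11.15, numpy 2.4.6 and pandas 2.3.3, with interval routines tested on simulated data. YAP and TAZ libraries were compared by exact permutation tests (scipy 1.17.1) without a replicate block. Windows and bins were tiled from each chromosome's first base to its last peak. Shares over all windows or bins therefore also count unsequenced stretches of the build, which can hold no peak. Peaks named were those at the start sites, the widest and highest-ranked of each library, strong peaks, and the best-ranked region of all 4 libraries in each part; the borders of the common gaps were added after their values were seen. The gene borders on hg19 were given with the choice of locus. Members, lists and tests were chosen with earlier results of these data known. Paraspeckle protein genes were not analysed here, since no hg19 positions were used.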

Additional observations from a re-analysis of the deposited data

How the results depend on the processing

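Sequencing depth is unknown and 2 libraries per antibody limit every comparison. Leaving out 1 library gave YAP minus TAZ differences of -20.7 to -4.19 points for the locus and -16.2 to -1.79 for NEAT1. For MALAT1 they were -4.26 to 0 points, and for peak number -2 to 6. Regions held by all the libraries left, a looser demand than all 4, numbered 29 to 33, and the overlap contrast was -0.0113 to 0.101. The locus and NEAT1 mean coverage differences kept their sign in all alternatives run. Within replicate 1, however, YAP covered more of NEAT1 than TAZ, 11.6% against 10.1%. With a fold of at least 4 and with 20000 strong peaks, NEAT1 was covered in TAZ replicate 2 only, to 7.17%. The MALAT1 difference was 0 with a fold of at least 4 and with 20000 strong peaks, which leave no peak in the gene, and 0 without TAZ replicate 2. The peak number difference of 2 was -1.5 with a fold of at least 4, -1 with strong peaks and -7 with lists shortened to 310657 peaks. It was -1 without YAP replicate 2 and -2 without TAZ replicate 2. Regions of all 4 libraries numbered 0 with a fold of at least 4, which left 3 and 1 YAP peaks and 5 and 2 TAZ peaks in the locus. With strong peaks the number could only be 0, since YAP replicate 1 had no strong peak in the locus. It was 14 when each library had to cover 50% of the region. None of these counts has a share over all regions beside it, so they do not set the locus apart. Start site peaks were found in 1 library within 250 bp and 1 library with a q-value of at most 0.01 at NEAT1. Within 2.5 kb they were found in 3 libraries at NEAT1, YAP replicate 1 among them, and in 4 at MALAT1. Fewer peaks lengthen gaps by construction: the MALAT1 gap was 145 kb with a fold of at least 4 and 295 kb with strong peaks. The gap and start site alternatives with a q-value limit were chosen after seeing the data.

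With the replicate number as a block, the mean differences were by construction the same, -12.5, -9.01 and -2.13 points and 2 peaks. Exact sign-flip p was 0.5, 1, 1 and 1. With 2 blocks the lowest possible p of this test is 0.5, so no call could have changed. The 2 replicates differed in sign for NEAT1 coverage and peak number, but not for locus coverage. In replicate 1, YAP covered more of NEAT1 than TAZ (11.6% against 10.1%) and had fewer peaks (47 against 52). In replicate 2, YAP covered less of NEAT1 (4.94% against 24.5%) and had more peaks (53 against 44). Replicate 1 minus replicate 2 coverage correlated between YAP and TAZ with r = 0.470 over 10105 windows, but 2 pairs do not establish a pairing.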

Other observations

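Downstream of MALAT1, the libraries differed widely in how much DNA was covered. Peaks covered 43.8% and 42.8% of the 126060 bp there with YAP, against 54.7% and 75.9% with TAZ. Of the 126 bins of 1 kb, 10 had peaks of both TAZ libraries and of neither YAP library (7.94%, against 0.8% of all bins). The reverse held in 0, against 2.46% of all bins. These counts move with coverage, which was higher here in both TAZ libraries, and whether they go beyond it was not tested. A region from 65351071 to 65353052 was held by both TAZ libraries alone, with a fold of 3.34 and 3.13. TAZ replicate 1 met it with a peak of 254 bp at its far edge, 12.8% of the region, and TAZ replicate 2 covered 97.3%. TAZ replicate 2 also had the widest downstream peaks, of 19120 and 16414 bp.

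Upstream of NEAT1, towards SLC25A45, FRMD8, TIGD3 and DPF2 in the RefSeq gene order, YAP peaks covered 54.2% and 61.6%, TAZ peaks 57.8% and 73.3%. The region from 65125960 to 65144702 was held by all 4 libraries, as 1 peak of 17720 bp in YAP replicate 1 and in pieces in the others, at fold 3.44 and 3.48 with YAP, 3.90 and 3.65 with TAZ. Of the 34 regions of the locus, 4 were held by 1 library only (11.8%, against 22.4% of all regions), 3 of them by TAZ replicate 2.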
